A study of Pogonatum aloides with 7 samples.

Results

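The transcripts described here are 300 unigenes of the moss Pogonatum aloides that had an RPKM value in the capsule libraries of stages 2, 4 and 5 and a dash in those of stages 1 and 3 and of the young gametophyte. RPKM is a read count scaled to the length of the transcript and to the total reads of its library. A unigene is a sequence put together from the RNA reads themselves, with no genome. Of 74566 unigenes, 3159 (4.24%) had this listing, and the 300 with the highest mean RPKM over the 3 stages were taken as members. The listing and the mean were therefore the basis of the choice, and both are given below as a description without a test. The series measured RNA of wild-type plants, with 1 library for each of 5 capsule stages and 1 for young gametophytes. The labels call the capsules of stages 1, 2 and 3 small, those of stage 4 middle and those of stage 5 big, and name the gametophytes seedlings. The series uses the young gametophyte as its control. How many plants went into a library was not stated in the labels. No group had a second library, so no difference below has a replicate check.

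A moss capsule is the spore-bearing part of the diploid sporophyte, which stays attached to the haploid leafy gametophyte and is fed by it. Inside the capsule, spore mother cells divide by meiosis and the spores then mature, while the capsule wall and lid differentiate around them. In hair-cap mosses such as Pogonatum, a calyptra of gametophyte tissue covers the young capsule. The identifiers carry no gene names, so 0 members could be assigned to a pathway, and no marker list could be used to check the labelled tissue. In the identifiers, contigs that share a CL number belong to 1 cluster. In transcript assemblies such clusters commonly gather similar sequences. How the clusters were built, and how reads matching more than 1 contig were counted, is not given in the sources used here. Similar contigs could split such reads, so the level of a single contig is uncertain to that extent.

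Library totals were not taken from a deposited count but estimated from the steps between low RPKM values. These estimates were 5458335 to 5752394 reads in the capsule libraries and 3821669 reads in the gametophyte, the shallowest library. The reads worked back with them sum to 99.4% to 99.7% of the estimate in the capsule libraries and to 96.1% in the gametophyte, and every read count, interval and limit below rests on them. A limit of 3 reads on a 1 kb unigene corresponded to 0.522 RPKM in stages 1 and 3 and to 0.785 RPKM in the gametophyte. Intervals and limits given here cover counting error only. Spearman's rho over the 66294 unigenes that reached 1 RPKM in any library was 0.71 to 0.79 among stages 2, 4 and 5. It was 0.83 for stages 1 and 3, and 0.48 to 0.61 from one of these sets to the other. The capsule libraries thus stood apart in sets that cross the order of the stages and the labelled sizes. Which difference between the plants or libraries goes with this was not tested, and with 1 library a stage it cannot be told apart from development.

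The listing shared by the members was the most frequent of its kind. There are 10 ways for a unigene to be listed in exactly 3 capsule stages and not in the gametophyte. Stages 2, 4 and 5 accounted for 3159 unigenes, and stages 1, 3 and 5, the next combination, for 982. The smallest number was 144, for stages 1, 2 and 4. When 20 reads in some library were asked for, 744 unigenes were listed in stages 2, 4 and 5 only, and the next combination, again stages 1, 3 and 5, held 77. Each library is RNA of whole tissue, in which fewer cells of a type and less RNA per cell cannot be told apart. A member thus appeared in the small capsules of stage 2, was not read in the small capsules of stage 3, and was read again in the middle and big capsules. The opposite listing, in stages 1 and 3 but not in stages 2, 4 and 5, was held by 2189 unigenes together with the gametophyte and by 1991 without it.

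**Figure D1:**
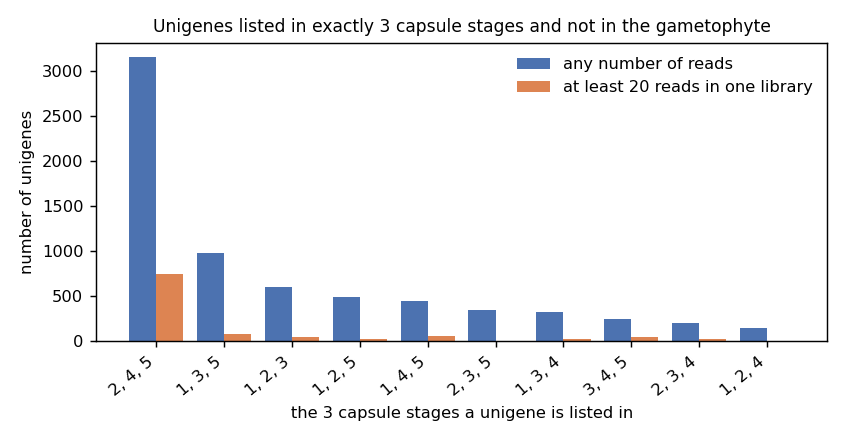
Number of unigenes (vertical axis) listed in each set of exactly 3 capsule stages and not in the gametophyte, for any number of reads (blue) and for at least 20 reads in one library (orange). Stages 2, 4 and 5 hold 3159 and 744 unigenes, above all other combinations.

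The edge of this listing was gradual. Among 9067 unigenes listed in stages 2, 4 and 5 at the members' mean level or above, 300 had no read in stages 1 and 3 and the gametophyte. A further 123 had 1 read there in sum, 133 had 2 or 3, and 269 had 4 to 10, while 6892 had over 100. Members therefore differ from their nearest neighbours by very few reads. In 66 unigenes the 1 to 3 reads lay in stage 1 alone, in 101 in stage 3 alone and in 20 in the gametophyte alone. At the other edge, the members at ranks 299 and 300 had mean levels of 7.56 and 7.55 RPKM. The unigenes at ranks 301 and 302, just outside, had 7.55 and 7.50 RPKM. Below the members, 2859 further unigenes had the same listing, and the members held 45.6% of the summed mean RPKM of all 3159.

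Most members were of moderate abundance. Their mean level over the 3 stages ran from 7.55 to 339 RPKM with a median of 11.9 RPKM. Of the 300, 193 had a mean of at least 10 RPKM, 64 of at least 20 RPKM, 8 of at least 50 RPKM and 3 of at least 100 RPKM. In stage 2 the members lay between 0.123 and 741 RPKM with a median of 10.5 RPKM. In stage 4 they lay between 0.323 and 148 RPKM with a median of 13.3 RPKM. In stage 5 they lay between 0.108 and 210 RPKM with a median of 11.8 RPKM. The medians of the 3 stages were thus close together, and all lay above the median of all listed unigenes, which was 1.90, 2.13 and 2.16 RPKM in stages 2, 4 and 5, as a choice by high mean entails. The members together held 0.740%, 0.770% and 0.821% of the summed RPKM of these libraries.

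**Figure D2:**
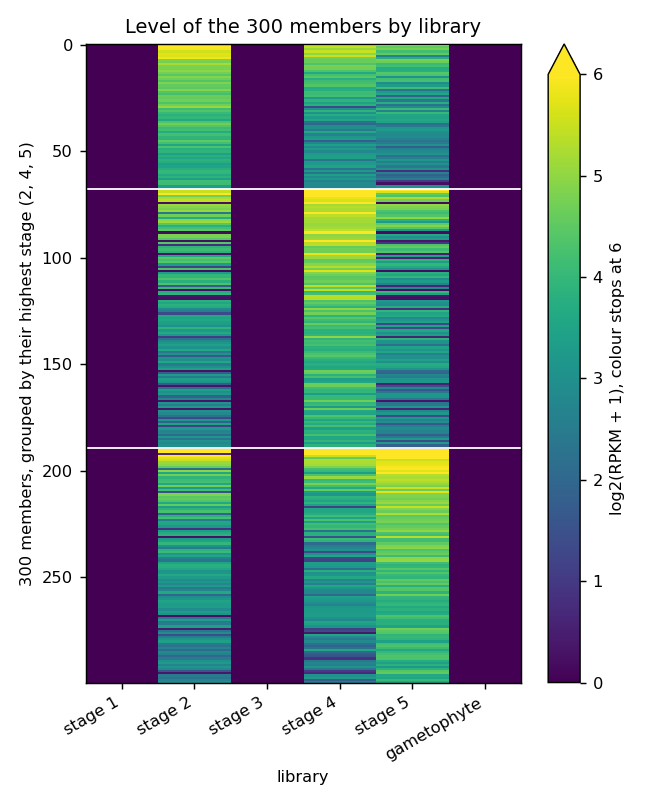
Level of the 300 members (rows) in the 6 libraries (columns) as log2(RPKM + 1), with rows grouped by the stage of the highest value and ordered by mean RPKM within a group. White lines separate the 68 members highest in stage 2, the 122 highest in stage 4 and the 110 highest in stage 5, where 30%, 26.3% and 43.7% of all unigenes read in the 3 stages are highest. Stages 1 and 3 and the gametophyte are at 0 by the choice of members, and thin dark lines in stages 2, 4 and 5 are members read only a few times there.

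The depth behind a member was limited. The median number of reads was 25 in stage 2, 30 in stage 4 and 28 in stage 5. In 195 members each of the 3 stages had at least 10 reads, and in 110 each had at least 20. In 44 members at least one of the 3 stages rested on 1 to 3 reads, and 22 members stayed below 20 reads in every library. A dash in the other libraries sets an upper limit and is not proof of absence. Against the level of 3 reads, the mean of the 3 stages was at least 10-fold higher than the limit of stage 1 in 155 members, than that of stage 3 in 155 and than that of the gametophyte in 103. The lowest of these bounds was 2.07-fold, against the gametophyte, and the highest was 224-fold, against stage 1 and against stage 3.

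The most abundant member was CL13265.Contig2, of 298 bases. Its level was 741, 148 and 127 RPKM in stages 2, 4 and 5 (1271, 240 and 216 reads) and had no read in stages 1 and 3 and the gametophyte. Its mean was at least 193-fold above the limit of 3 reads in stage 1 and in stage 3 and at least 129-fold above that in the gametophyte. The 3 stages were clearly uneven, with stage 2 far above stages 4 and 5. The read ratio of stage 4 to stage 2 was 0.199 (95% exact counting interval 0.173 to 0.229). That of stage 5 to stage 4 was 0.857, with an interval from 0.710 to 1.03, so these stages were not distinguishable at this depth. It was the most highly placed member of any library, at rank 95 among the 40746 unigenes listed in stage 2. The best rank of a member was 767 in stage 4 and 453 in stage 5.

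The next member was CL4191.Contig3, of 241 bases, at 137, 115 and 209 RPKM in stages 2, 4 and 5 (190, 151 and 289 reads). Stage 5 was the highest here. The read ratio of stage 5 to stage 4 was 1.82, with a counting interval from 1.49 to 2.24, and that of stage 4 to stage 2 was 0.838, with an interval from 0.672 to 1.04. Its mean was at least 71.0-fold above the limit of 3 reads in stages 1 and 3 and at least 47.2-fold above that in the gametophyte. The member at rank 3, a contig of 372 bases, had 98.6, 68.5 and 185 RPKM and thus the same order of stages. The member at rank 4, a contig of 267 bases, differed from all of these, with 0.651 RPKM (1 read) in stage 2, 69.3 RPKM in stage 4 and 210 RPKM in stage 5. Its single read is what places it among the members. The member at rank 14, a single unigene of 2855 bases, had 542, 582 and 861 reads or 33.0, 37.3 and 52.6 RPKM. It was at least 224-fold above the limit in stages 1 and 3 and 149-fold above that in the gametophyte, the highest such bounds of any member.

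**Figure D3:**
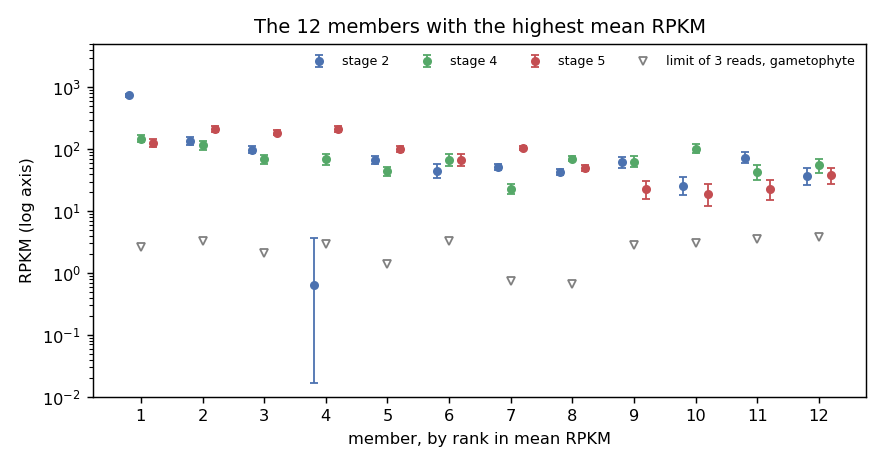
RPKM (log axis) of the 12 members with the highest mean in stages 2, 4 and 5, with exact 95% Poisson intervals of the reads as bars. Open triangles mark the level that 3 reads would give in the gametophyte, between 0.666 and 3.77 RPKM for these members. Apart from the 1 read of the member at rank 4 in stage 2, all points lie above the triangles.

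The members were next compared between the stages in which they were read, by the ratio of RPKM + 1 with a threshold of 2-fold and at least 1 RPKM in either library. With 1 library a stage these counts have no test and describe the libraries alone. A mean admits a unigene through 1 high stage, so large differences within a member are partly a result of the choice. In stage 4 relative to stage 2, 64 of 299 members were higher (21.4%) and 36 were lower (12%). Among all 33800 unigenes compared, 16.9% were higher and 19.1% lower. These include unigenes read in only one of the pair, whereas every member was read in both by the rule, and among the 27433 read in both 8.29% were higher and 12.8% lower. The members' median log2 ratio was 0.16, against −0.07 for all unigenes. These medians were 0.27 and 0.03 after median-ratio scaling and −0.24 and −0.43 after upper-quartile scaling, so the members lay above all unigenes each time while the sign of their own median turned. The balance of calls depended on the scaling too: among changed members 64.0% were higher as deposited, 70.1% after median-ratio scaling and 44.7% after upper-quartile scaling. It also depended on the ranking, since over all 3159 unigenes with the listing 12.3% were higher and 14.1% lower.

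In stage 5 relative to stage 2, 74 of 290 members were higher (25.5%) and 63 were lower (21.7%), where 24.6% and 16.0% of 35624 unigenes were higher and lower. The median log2 ratio was 0.05 for the members and 0.20 for all unigenes. They were −0.02 and 0.11 after median-ratio scaling and 0.03 and 0.18 after upper-quartile scaling. Among the 30153 unigenes read in both stages 17.3% were higher and 12.5% lower, below the members' shares in both directions. In stage 5 relative to stage 4, 68 of 300 members were higher (22.7%) and 88 were lower (29.3%), where 28.1% and 17.8% of 36331 unigenes were higher and lower. Among the 28771 read in both stages these shares were 19.8% and 11.8%, so whether the members' higher share lies above or below depends on the unigenes it is set against. The median log2 ratio was −0.20 for the members and 0.28 for all unigenes. It was −0.42 and 0.09 after median-ratio scaling and 0.17 and 0.57 after upper-quartile scaling, with the members below all unigenes each time. Among changed members 43.6% were higher as deposited, 33.8% after median-ratio scaling and 57.2% after upper-quartile scaling, so the direction of this balance turned with the scaling. Over all unigenes with the listing it turned too, with 19.0% higher and 14.5% lower. All 3 comparisons share libraries and are not independent of each other.

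Counting error reduced these numbers. With the 95% exact counting interval of the read ratio wholly beyond 2-fold, 37 members were higher and 8 lower in stage 4 than in stage 2 (12.4% and 2.68%, against 6.60% and 3.39% of all unigenes and 2.15% and 3.58% of those read in both). In stage 5 relative to stage 2, 33 were higher and 29 lower (11.4% and 10%, against 6.70% and 4.58% of all and 6.18% and 4.82% of those read in both). In stage 5 relative to stage 4, 32 were higher and 39 lower (10.7% and 13%, against 7.78% and 7.78% of all and 7.78% and 4.53% of those read in both). An interval clears this threshold more easily with more reads, and the unigenes set beside the members were not matched for reads. Ranking by the mean also admits members through a high level in any of the stages. An excess over these shares is thus partly a result of the choice, and it was not tested.

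**Figure D4:**
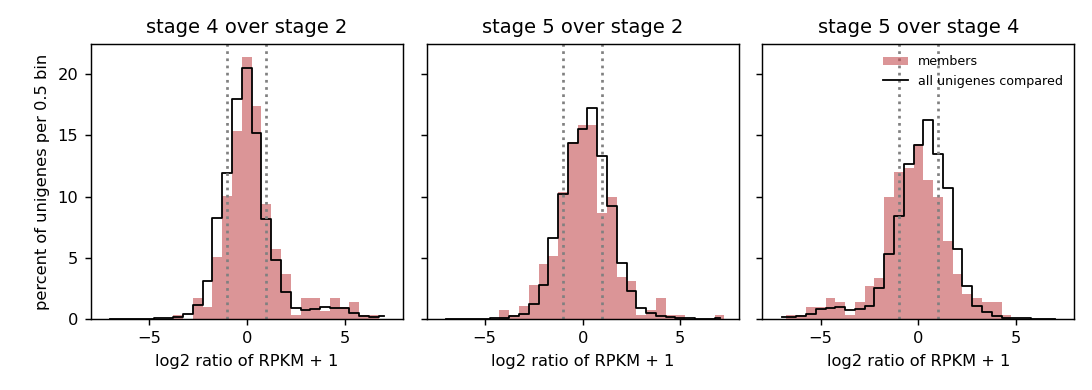
Distribution of the log2 ratio of RPKM + 1 between pairs of stages, as percent of unigenes per bin of 0.5, for the members (red) and for all unigenes that reached 1 RPKM in a library of the pair (black line). Dotted lines mark 2-fold. The members' medians, as deposited, are 0.16, 0.05 and −0.20, with signs that turn under other scalings, for stage 4 over stage 2, stage 5 over stage 2 and stage 5 over stage 4.

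Levels were even over the 3 stages in a minority of the members. The highest and lowest of the 3 values lay within 2-fold in RPKM + 1 in 92 members (30.7%), against 36.7% of the 39312 unigenes that reached 1 RPKM in any of these stages and 52.4% of the 27563 among them that were read in all 3. Stage 2 stood at least 2-fold above both other stages in 15 members (5%), stage 4 in 40 (13.3%) and stage 5 in 44 (14.7%). Among all unigenes the shares were 6.46%, 8.74% and 15.1%, and among those read in all 3 stages 4.88%, 3.38% and 10.5%. With no margin, 68 members (22.7%) were highest in stage 2, 122 (40.7%) in stage 4 and 110 (36.7%) in stage 5. Of the 27563 unigenes read in all 3 stages, 30% were highest in stage 2, 26.3% in stage 4 and 43.7% in stage 5. As deposited and with no margin, the most frequent stage was thus stage 4 for the members and stage 5 for all of these. With the 2-fold margin the members' order of stages 4 and 5 turned with the scaling. Their shares in stages 4 and 5 were 17.3% and 12% after median-ratio scaling and 9.33% and 14.7% after upper-quartile scaling. A mean admits a member through 1 high stage, so these shares are partly a result of the choice. Over the members the levels in stage 4 had a Spearman rho of 0.24 with those in stage 2 and of −0.03 with those in stage 5, and the rho of stages 2 and 5 was 0.24. Over all 3159 unigenes with the listing it was 0.66, 0.58 and 0.57 for stages 2 and 4, 2 and 5, and 4 and 5. Ranking by the mean narrows the range of levels among the members, and the points of these correlations are unigenes, not independent samples.

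A small set of members was carried almost wholly by 1 stage. At least 90% of the summed RPKM of the 3 stages lay in stage 4 in 14 members, in stage 5 in 3 and in stage 2 in 0. Over 27563 unigenes listed in all 3 stages with at least 1 RPKM in one of them, these shares were 0.254%, 0.381% and 0.0544%. A mean admits a member through 1 high stage, so an excess over these shares is partly a result of the choice. With a share as low as 0.0544%, the 0 members in stage 2 show no difference from all of these unigenes. All 14 of the stage 4 members were single unigenes, as were 82.9% of the 70 unigenes with such a share among the 27563. Of the 17 members, 16 had 1 to 3 reads in at least one other stage, so their listing in 3 stages rests on those reads.

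The clearest of these was the member at rank 19, of 1620 bases. It had 957 reads in stage 4 (108 RPKM), against 2 reads in stage 2 and 1 read in stage 5, and was unread elsewhere. The read ratio of stage 4 to stage 2 was 504 with a counting interval from 139 to 4170. The members at ranks 50 and 59, of 1417 and 1897 bases, had the same form, with 68.0 and 62.4 RPKM in stage 4 and at most 0.276 RPKM in stages 2 and 5. In stage 5 the corresponding member was that at rank 122, a single unigene of 3201 bases with 4, 32 and 722 reads in stages 2, 4 and 5. Its level of 39.4 RPKM in stage 5 was 181-fold that in stage 2, with a counting interval from 70.5 to 667. No member was confined to stage 2 in this way. By the ratio of RPKM + 1, the member furthest below its stage 2 level in stage 5 was that at rank 76, of 378 bases, with 1 read in stage 5 and 47 reads in stage 2. It had 67 reads in stage 4, so it too was not a transcript of stage 2 alone.

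Nearly as many members belonged to a numbered cluster as stood alone. There were 142 clustered members (47.3%) in 140 clusters and 158 single unigenes. Contigs made up 29.3% of all unigenes, 36.7% of the 30715 unigenes listed in stages 2, 4 and 5 and 49.2% of the 3159 with the members' listing. As listed in the files the clusters were small, with a median of 2 contigs and at most 9. Some contig numbers in the identifiers run higher than the count of contigs in the files, so parts of some clusters may be missing. For 20 clustered members no other contig of the cluster was in the files. In 2 clusters there were 2 member contigs each. One pair had nearly the same course, with 3.32, 17.5 and 83.3 RPKM for a contig of 262 bases and 1.86, 9.40 and 52.9 RPKM for one of 3451 bases in stages 2, 4 and 5. The other pair differed in stage 4, at 44.1, 38.1 and 44.9 RPKM for a contig of 284 bases and 27.5, 7.80 and 28.1 RPKM for one of 329 bases.

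Most clustered members had a sister contig that was read in the libraries where the member was not. Another contig of the same cluster was listed in both stage 1 and stage 3 for 104 of the 142 (73.2%). This compares with 54.7% of all 21844 contigs and 56.1% of the 11283 contigs listed in stages 2, 4 and 5. Of 3246 contigs outside the members that were listed in these 3 stages at the members' level, 38.0% had such a sister. These bases, also used for the shares that follow, include contigs with no other contig in the files. In clusters of 2 or more contigs the shares were 85.2% of 122 members, 68.7% of 17414 contigs and 73.2% of 8640 contigs listed in stages 2, 4 and 5. At the members' level it was 58.4% of 2111 contigs. The gap was thus narrower in these clusters. For 56 members (39.4%) a sister contig was listed in all 6 libraries, against 33.9% of all contigs and 24.6% at the members' level. For 32 members (22.5%) a sister contig had the opposite listing, in stages 1 and 3 and not in stages 2, 4 and 5. This was so for 11.4% of all contigs, 12.3% of those listed in stages 2, 4 and 5 and 7.24% at the members' level. This opposite listing was more frequent, at 33.5%, among all 1554 contigs with the members' listing, and less frequent, at 9 of 58 or 15.5%, among the contigs of the first 100 members. The reverse count views pairs of this kind from the other side and is not a separate observation. It takes only opposite contigs that were also read in the gametophyte, whereas the shares above take those with and without it. Of 1108 contigs listed in stages 1 and 3 and the gametophyte only, 372 (33.6%) shared a cluster with a contig listed in stages 2, 4 and 5 only, against 9.68% of all contigs. No test was made of these shares, since contigs of a cluster are not independent and may share reads.

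The levels of the sister contigs were not used to choose the members. In 119 clusters with a member and another contig outside the members, the summed RPKM of the other contigs had a median of 1.18, 1.12 and 1.30 RPKM in stages 2, 4 and 5. In stages 1 and 3 it was 8.12 and 8.67 RPKM and in the gametophyte 6.27 RPKM. The member contigs of the same clusters had medians of 12, 13.7 and 12.5 RPKM in stages 2, 4 and 5. The sister contigs were thus lower in the libraries where the member was read, with wide overlap between clusters. Of 155 sister contigs with at least 1 RPKM in a capsule library, 87 (56.1%) had a mean over stages 2, 4 and 5 at least 2-fold below that over stages 1 and 3, and 18 (11.6%) at least 2-fold above. Over 12923 contigs the shares were 23.5% and 21.4%. The median log2 ratio was −1.22 for the sister contigs and 0.01 for all contigs.

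**Figure D5:**
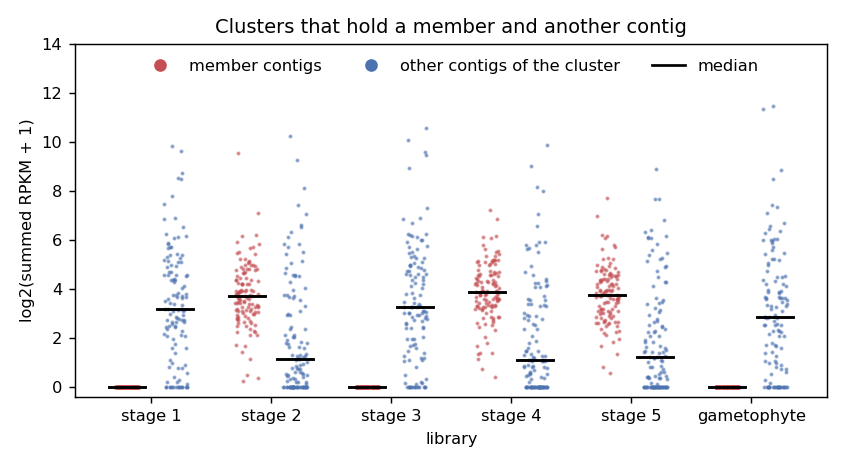
Summed level of the member contigs (red) and of the other contigs (blue) in 119 clusters that hold both, as log2(RPKM + 1) by library, with the median as a black line. The blue medians correspond to 1.18, 1.12 and 1.30 RPKM in stages 2, 4 and 5 and to 8.12 and 8.67 RPKM in stages 1 and 3. The red points are at 0 in stages 1 and 3 and the gametophyte by the choice of members.

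When the contigs of a cluster were summed, the contrast was smaller than for the members alone, as the choice of members entails. Members have no read in stages 1 and 3, so the sums there are those of the other contigs. The summed clusters had medians of 16.5, 19.2 and 16.5 RPKM in stages 2, 4 and 5, against 8.12 and 8.67 RPKM in stages 1 and 3. For each cluster the mean of these sums over stages 2, 4 and 5 was set against the mean over stages 1 and 3, in RPKM + 1. In 55 of the 119 clusters (46.2%) the mean over stages 2, 4 and 5 was within 2-fold of the other. It was at least 2-fold higher in 56 (47.1%) and at least 2-fold lower in 8 (6.72%). Over 5954 clusters of 2 or more contigs, 70.8% were within 2-fold, 13.0% were higher and 16.2% lower. The member itself entered these sums, so the excess of higher clusters is partly a result of the choice. The member held most of its cluster's RPKM in the stages where it was read, with medians of 91.2%, 92.6% and 91.9% in stages 2, 4 and 5. In 89 of the 119 clusters it held over 50% in all 3 stages. Members were chosen for a high mean in these stages, so a large share there is partly a result of the choice. No share from other clusters is set beside it here.

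The cluster of the most abundant member showed this contrast plainly. Its other contig, of 324 bases, stood at 23.1, 5.65 and 2.15 RPKM in stages 2, 4 and 5, where CL13265.Contig2 had 741, 148 and 127 RPKM. In stages 1 and 3 that contig reached 428 and 1086 RPKM and in the gametophyte 2633 RPKM, where CL13265.Contig2 had no read. The member at rank 8, of 1179 bases, had 43.3, 70.4 and 49.0 RPKM in stages 2, 4 and 5. Its sister, of 1166 bases, had 0, 0.786 and 0.299 RPKM there, and 49.4 and 37.8 RPKM in stages 1 and 3 and 76.5 RPKM in the gametophyte. In both clusters, then, the library with most of one contig had little of the other. Not all clusters were of this form. The member at rank 6, of 235 bases, had 3 sister contigs that were read at 45.4 to 251 RPKM in every library, while the member itself had 45.1, 67.8 and 67.6 RPKM in stages 2, 4 and 5. The cluster of CL4191.Contig3 held both forms. A sister of 626 bases ran through all libraries, at 24.2, 15.8 and 34.0 RPKM in stages 2, 4 and 5, 22.8 and 15.6 RPKM in stages 1 and 3 and 6.27 RPKM in the gametophyte. Another sister, of 607 bases, had 0, 0.604 and 0 RPKM in stages 2, 4 and 5, 12.6 and 10.3 RPKM in stages 1 and 3 and 0 RPKM in the gametophyte.

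Sister contigs of the opposite listing numbered 36, in 31 clusters, and 25 of them were also read in the gametophyte. The most abundant was CL653.Contig4, of 223 bases, with no read in stages 2, 4 and 5, 78.0 and 213 RPKM in stages 1 and 3 (100 and 273 reads) and no read in the gametophyte. The limit of 3 reads for it was at most 2.46 RPKM in stages 2, 4 and 5, and its mean over stages 1 and 3 was at least 59.0-fold above that. The member of its cluster, at rank 27, was far longer, at 2537 bases, and had 56.9, 25.2 and 12.5 RPKM in stages 2, 4 and 5. This cluster had 7 contigs in the files, and those other than the member summed to 618, 513 and 200 RPKM in these stages. Most of the cluster's RPKM there thus lay in sister contigs other than CL653.Contig4. The next was CL13410.Contig1, of 277 bases, with no read in stages 2, 4 and 5, 38.9 and 59.0 RPKM in stages 1 and 3 and 43.5 RPKM in the gametophyte. Its partner, the member at rank 21, was of similar length, at 289 bases, with 51.7, 30.4 and 22.3 RPKM in stages 2, 4 and 5. The 36 contigs and 32 members formed 37 pairs. In 16 pairs the lengths differed by at most 10%. In 10 pairs the member's mean over stages 2, 4 and 5 was within 2-fold of the contig's mean over stages 1 and 3, and in 29 it was higher, with a median log2 ratio of 1.48. The members are chosen for high levels and these contigs are not, so that excess follows in part from the choice. No counts from other pairs of contigs in a cluster are set beside these, so they are not shown to be particular to such pairs.

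The members were short for their number of reads. Their median recovered length was 386.5 bases, with quartiles of 268 and 709 bases and a range of 200 to 3451 bases. Over all unigenes the median was 386 bases. Where a unigene had 20 reads or more in some library, the median was 413 bases for 278 members, 917.5 bases for 744 unigenes with the members' listing, 1323 bases for 16481 unigenes listed in stages 2, 4 and 5 and 1001 bases for all 24620. A short unigene reaches a high RPKM with few reads, so a ranking by RPKM favours short sequences, and ranking the same unigenes by summed reads kept 159 of the 300. Of the 300 members, 49 (16.3%) reached 1000 bases, against 24.7% of all unigenes, and 12 reached 2000 bases. Among 120 members with a sister contig outside the members, 88 (73.3%) had a longer one, against 59.0% of the 17414 contigs in clusters of 2 or more. With several sisters a longer one is found more easily, and cluster size was not matched here. The median length was 432.5 bases for these members and 1108 bases for the longest sister.

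Members with and without a sister contig in stages 1 and 3 had similar levels. The median of the mean RPKM was 13.2 for the 104 members with such a sister, 12 for the other 38 clustered members and 11.3 for the 158 single unigenes. Their course over the stages differed more. The 3 stages lay within 2-fold in 44 of the 104 (42.3%), in 7 of the 38 (18.4%) and in 41 of the 158 single unigenes (25.9%). Stage 2 was the highest stage in 27.9%, 15.8% and 20.9% of these groups. These groups were formed after the data had been seen, and their difference was not tested.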

How the data were processed

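RNA was extracted with TRIzol and sequenced from libraries made by standard Illumina protocols, per the labels' protocols. The deposited values are RPKM computed by the authors, 1 table for each of 6 libraries, per the file headers. A seventh sample, a pool, was not analysed here. The assembler, the aligner and the way reads were counted were not given in the sources used here. A dash was read as 0. Library totals were estimated from the steps of repeated low values. For each unigene the smallest length of 200 to 15000 bases that made all its values whole reads, within 0.9 of the last printed digit, was taken, which succeeded for 100.0% of unigenes. If all reads share a factor with the length, both are underestimated. Stage pairs were compared by ratios of RPKM + 1, at least 2-fold and at least 1 RPKM in either library, and by exact conditional-binomial 95% intervals of recovered reads (python 3.11.15, scipy 1.17.1). Adding 1 RPKM makes the fold of weakly read unigenes too small. With 1 library a group no test was run and no p-value is given. Alternatives were other pseudocounts (0.1 and 5 RPKM), scalings, minima and rankings. Identifiers were limited to 4: the 2 members with the highest mean, and the 2 contigs of the opposite listing in members' clusters with the highest mean over stages 1 and 3. Other members are given by rank or by their place in an order of ratios, and several were singled out after their values were seen. The members and lists were chosen with earlier results of these data known.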

Additional observations from a re-analysis of the deposited data

How the results depend on the processing

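Of 116 values recomputed under alternatives, 86 stayed within 1.5 times the reported value and 30 did not. The share of clustered members with a sister contig in stages 1 and 3, 73.2% as reported, ran from 64.1% to 81.8%. A share of this size cannot rise by 1.5 times, so only a fall could have left that range. Where under 0.5 RPKM in stages 1 and 3 and the gametophyte counted as not listed, 5179 unigenes had the listing and 188 members were kept. Asking for 20 reads in a library left 744 unigenes. Ranking by summed reads kept 159 members, with 14.1% higher in stage 4 than in stage 2. Some rankings were added after the data were seen. By the lowest of the 3 values, 9.33% were higher and 7% lower in stage 4 than in stage 2, 12.7% and 14% in stage 5 than in stage 2, and 14% and 16% in stage 5 than in stage 4, with 5% of peaks in stage 4 and 7.33% in stage 5. By the geometric mean, 7% peaked in stage 4. Among the first 100 members, 7% were lower in stage 4 than in stage 2. Over all unigenes with the listing, 12.3% were higher and 14.1% lower in stage 4 than in stage 2, and 19.0% higher and 14.5% lower in stage 5 than in stage 4, so both balances turned against those of the members. With 5 RPKM added, 7.02% were lower in stage 4 and 13.1% lower in stage 5 than in stage 2. After upper-quartile scaling, 21.1% were lower in stage 4 than in stage 2 and 8.33% peaked in stage 2. Under the counting interval, 12.4% were higher and 2.68% lower in stage 4 than in stage 2, 11.4% and 10% in stage 5 than in stage 2, and 10.7% and 13% in stage 5 than in stage 4. With no margin, 22.7%, 40.7% and 36.7% peaked in stages 2, 4 and 5, against 30%, 26.3% and 43.7% of all unigenes read in the 3. Depth limits what a dash can show: against the gametophyte the bound reached 10-fold in 103 members. No paired analysis was possible because each group has 1 library.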
